A study of Mus musculus with 9 samples.

Results

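Imprinted genes are transcribed mainly from the copy inherited from 1 parent. A list of 36 such genes in 17 imprinted domains was taken by exact gene symbol, and 34 of the 36 had values in the tables. Kcnq1ot1 and Peg13 were not analysed here. The cells were neural stem cells (NSCs) made from mouse embryonic stem cells (ESCs) and collected along the sequence in which ventral hindbrain NSCs give rise to motor neurons, serotonergic neurons and glial precursors. The ESCs were wild type, of strain 129 and of the single line E14.1, and were grown as a monolayer. Retinoic acid and SAG, a Smoothened agonist that turns on Shh signalling, were given, by the sample labels, from 0 to 3 days in differentiation conditions (DDC). Magnetic sorting then isolated cells with prominin-1 on their surface, which marks neural progenitors but also some other epithelia. There were 3 libraries of poly(A)-selected RNA at each of 4.5DDC, 5.5DDC and 6.5DDC, 9 in all, and another field of the labels gives the same time points as 4, 5 and 6 days. The samples stand for a single line in culture and for a sorted fraction measured in bulk. The libraries held between 11066568 and 25506193 counts. The 34 genes accounted for 0.794% to 0.957% of the total in each library.

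In most known cases, though not all, imprinting rests on DNA methylation laid down in the egg or the sperm at control regions. It is kept through cell division after fertilization and read in each somatic cell. A single control region commonly governs several neighbouring genes, some expressed from the maternal and others from the paternal copy. Many imprinted genes act in embryonic growth, in the placenta and in the developing brain, and several of them encode regulators of progenitor proliferation. The parental copies were not separated here, so each value sums both. Levels are given as FPKM (fragments scaled by transcript length and sequencing depth), which can be set side by side between genes, in the order replicate 1, 2 and 3. Fold changes come from counts scaled with TMM, and these normalized counts are given as CPM (scaled by library size alone). Where a range over alternatives is given, it spans edgeR, DESeq2 and limma fits, each with Benjamini-Hochberg adjustment. A gene was called when its adjusted p was under 0.05 over all 14742 genes tested.

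Promoter windows from 250 bases before to 50 bases after each RefSeq start (GRCm38.p6) were read first, since many control regions lie at promoters rich in CpG. Of the 36 genes, 30 had 44 windows between them, with a median of 13 CpG per window against 7 over all 32851 windows. The letters TGCCGC, the hexamer bound by the zinc fingers of Zfp57 when its CpG is methylated, were searched for on both strands, and a match describes the letters alone. They occurred in 10 of the 44 windows (22.7%) and in 3813 of all 32851 (11.6%), and 2 or more times in 3 (6.82%) and 503 (1.53%). The hexamer itself holds a CpG, and these shares were not matched for CpG, so they show no excess beyond CpG content. The 10 windows belong to 9 genes and the 3 to 2 genes, since overlapping windows of 1 gene, such as those of Mest, were counted apart. The windows shown here belong to genes that were called between 4.5DDC and 6.5DDC and hold the hexamer, shown in capitals (GCGGCA where it lies on the other strand), or the shared start of Peg3 and Usp29. Each is written 5′ to 3′ on the strand of its gene. The Nap1l5 window lies at chr6:58907077-58907376 on the minus strand with 2 copies of the hexamer and 17 CpG, and that of Mest at chr6:30737800-30738099 on the plus strand with 2 copies and 17 CpG. The Meg3 window lies at chr12:109540746-109541045 on the plus strand with 1 copy and 13 CpG. The Grb10 window lies at chr11:12037371-12037670 on the minus strand with 1 copy and 45 CpG, a number reached by 1.93% of all windows. For Usp29, at chr7:6730333-6730632 on the plus strand, the capitals mark the 146 bases between the GENCODE starts of Peg3 and Usp29, which point away from each other, and the window held 17 CpG and no hexamer.
Nap1l5: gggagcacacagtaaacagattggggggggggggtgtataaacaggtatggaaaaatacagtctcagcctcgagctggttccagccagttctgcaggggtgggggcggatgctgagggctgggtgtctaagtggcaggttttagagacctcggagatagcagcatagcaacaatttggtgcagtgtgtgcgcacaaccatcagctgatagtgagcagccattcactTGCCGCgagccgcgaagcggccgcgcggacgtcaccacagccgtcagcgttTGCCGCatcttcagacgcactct
Mest: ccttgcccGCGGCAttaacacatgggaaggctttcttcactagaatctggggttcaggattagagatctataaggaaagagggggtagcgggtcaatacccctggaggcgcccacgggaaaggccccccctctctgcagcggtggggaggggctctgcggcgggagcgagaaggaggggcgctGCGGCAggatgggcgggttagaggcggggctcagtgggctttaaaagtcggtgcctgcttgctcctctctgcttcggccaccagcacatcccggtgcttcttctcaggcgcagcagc
Meg3: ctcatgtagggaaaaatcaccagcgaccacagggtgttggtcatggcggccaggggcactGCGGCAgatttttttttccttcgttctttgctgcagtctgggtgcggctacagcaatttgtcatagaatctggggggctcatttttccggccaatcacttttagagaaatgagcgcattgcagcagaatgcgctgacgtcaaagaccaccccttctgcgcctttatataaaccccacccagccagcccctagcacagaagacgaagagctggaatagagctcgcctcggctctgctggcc
Grb10: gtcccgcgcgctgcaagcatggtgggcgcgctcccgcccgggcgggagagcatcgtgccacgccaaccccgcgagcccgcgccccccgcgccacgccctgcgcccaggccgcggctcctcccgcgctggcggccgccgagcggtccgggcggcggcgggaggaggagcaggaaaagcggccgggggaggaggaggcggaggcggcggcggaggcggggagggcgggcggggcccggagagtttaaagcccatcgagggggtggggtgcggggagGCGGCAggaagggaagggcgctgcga
Usp29: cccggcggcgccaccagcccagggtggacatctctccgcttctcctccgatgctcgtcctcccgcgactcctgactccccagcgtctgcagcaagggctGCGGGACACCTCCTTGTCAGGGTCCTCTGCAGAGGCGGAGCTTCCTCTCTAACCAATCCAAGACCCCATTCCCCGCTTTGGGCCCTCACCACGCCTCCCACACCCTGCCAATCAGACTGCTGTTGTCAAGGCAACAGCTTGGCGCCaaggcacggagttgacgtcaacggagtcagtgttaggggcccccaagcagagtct
The window of Rian held 0 CpG, and those of Rian and Zrsr1 had no match. Trappc9, Impact, Sgce, Peg10, Cdkn1c and Peg13 had no window.

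The 3 libraries of replicate 1 stood apart from the other 6 before any imprinted gene was considered. Markers of neurons summed over 9 genes (Tubb3 was not analysed here) reached 207, 399 and 317 FPKM at 4.5DDC, 177, 461 and 479 at 5.5DDC and 267, 619.6 and 672 at 6.5DDC. Replicate 1 was lowest at each time point, and by replicate number 7 of the 9 neuron markers were called, against 5.41% of all genes. That count was 4 without 4.5DDC replicate 1, 3 without 4.5DDC replicate 2 and 2 without 5.5DDC replicate 1, where 2.41%, 2.98% and 1.38% of all genes were called. The most abundant neuron marker was Stmn2 in 7 of the 9 libraries, at up to 199 FPKM. Markers of mesenchyme, 9 genes led by Acta2 or Dcn, summed to 58.3, 94.3 and 59.1 FPKM at 4.5DDC, 63.1, 58 and 57.8 at 5.5DDC and 71, 127 and 139 at 6.5DDC. By replicate number 4 of the 9 were called, against 5.41% of all genes. Between 4.5DDC and 6.5DDC 1 was called (Twist1), against 18.7% of all genes. That count was 2 without 5.5DDC replicate 1 (20.9% of all genes) and 3 without 6.5DDC replicate 1 (20.7%). With replicate number in the model as a block, 6 were called higher, against 13% of all genes. The call of Twist1 was lost without 4.5DDC replicate 1 (0.077), 4.5DDC replicate 2 (0.0714), 4.5DDC replicate 3 (0.0609), 5.5DDC replicate 2 (0.0544), 6.5DDC replicate 1 (0.0531) or 6.5DDC replicate 2 (0.0792) (adjusted p, edgeR, Benjamini-Hochberg). Of the endoderm markers 5 of 8 were tested and 3 were called by number, with higher values in replicate 1. That count was 1 without 5.5DDC replicate 2 (2.87% of all genes) and 0 in edgeR without 4.5DDC, 5.5DDC or 6.5DDC replicate 1 (2.41%, 1.38% and 4.64%). Gata4, an endoderm transcription factor, had 2.54, 1.15 and 0.376 FPKM at 4.5DDC, 2.21, 0.699 and 0.874 at 5.5DDC and 7.62, 1.47 and 1.53 at 6.5DDC. In edgeR without replicate number in the model, no endoderm marker was called between time points. With that number as a block, 3 of the 5 tested were called higher at 6.5DDC than at 4.5DDC, against 13% of all genes. They were Sox17 (adjusted p = 0.0311), Gata4 (0.0365) and Gata6 (0.0488; edgeR, Benjamini-Hochberg). Endoderm markers summed to 89.9, 64.1 and 47.4 FPKM at 4.5DDC, 104, 74.2 and 69.3 at 5.5DDC and 79.2, 79.7 and 83.4 at 6.5DDC, led by Foxa2, which is also a floor plate gene. The other endoderm markers together reached 4.31, 1.9 and 0.903 FPKM at 4.5DDC, 3.97, 1.3 and 1.8 at 5.5DDC and 15.1, 2.35 and 2.24 at 6.5DDC, highest in replicate 1 at each time point and above all in 6.5DDC replicate 1, while Afp did not exceed 0.569 FPKM. Neural progenitor markers summed to between 2125 and 3130 FPKM, led by Vim, and 1 of the 10 (Nkx2-2) was called by number. This call was lost without 4.5DDC replicate 1 (0.17), 4.5DDC replicate 2 (0.0809), 5.5DDC replicate 1 (0.183), 5.5DDC replicate 2 (0.128), 5.5DDC replicate 3 (0.105), 6.5DDC replicate 1 (0.123) or 6.5DDC replicate 2 (0.0598) (adjusted p, edgeR, Benjamini-Hochberg). Between 4.5DDC and 6.5DDC 1 of the 10 rose, Prom1, and 1 fell, Sox3, against 9.21% and 9.53% of all genes. Sox3 stood at −1.80 (log2) over all 9 libraries and −1.19 without 4.5DDC replicate 2. It was not called without 4.5DDC replicate 2 (0.125), 6.5DDC replicate 1 (0.0666) or 6.5DDC replicate 2 (0.118) (adjusted p, edgeR, Benjamini-Hochberg). Prom1, which encodes the sorted protein, was measured at 89.3, 62.8 and 85.2 FPKM at 4.5DDC, 107, 99.9 and 104 at 5.5DDC and 207, 187 and 154 at 6.5DDC. Each time point lay above the one before. It rose by 1.19 (log2) from 4.5DDC to 6.5DDC, with a standard error of 0.182 and an adjusted p of 0.00364 (edgeR, Benjamini-Hochberg). Pluripotency markers summed to at most 6.49 FPKM, most of it Klf4, with Pou5f1 at no more than 0.606 and Nanog at no more than 0.177. In bulk RNA, fewer cells of a type and less RNA per cell cannot be told apart. The labels do not say what libraries of 1 number share or whether they came from separate cultures, so p-values measure only the spread between these samples, which may be technical.

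Imprinted genes covered a wide range of levels. Gnas, which encodes the stimulatory G protein alpha subunit, was the most abundant, with 768, 726 and 558 FPKM at 4.5DDC, 743, 759 and 885 at 5.5DDC and 620.0, 499.8 and 715 at 6.5DDC. The 6.5DDC libraries lay below those of 5.5DDC, and the 4.5DDC libraries overlapped both. Of the exon bases of Gnas, 22.0% are shared with other transcripts. Nnat, the gene of the small membrane proteolipid neuronatin, followed with 335, 507.01 and 476 FPKM at 4.5DDC, 315, 427 and 415 at 5.5DDC and 317, 364 and 399 at 6.5DDC. Its lowest library at each time point was replicate 1, and the groups overlapped. By mean level the next were Rian, Mest, Peg3 and Peg10, described with their domains. At the other end, Phlda2, a pleckstrin homology gene that limits placental growth, did not exceed 0.727 FPKM, and Slc22a18, a transporter gene of the same domain, did not exceed 0.127. Both were below the filter on low counts, which left 32 of the 34 genes for testing. Ascl2, a basic helix-loop-helix gene of trophoblast, was tested at 0.042 to 0.885 FPKM.

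Over the whole span, 7 of the 32 imprinted genes tested were called between 4.5DDC and 6.5DDC (edgeR). Usp29, Nap1l5, Meg3, Rian and Zrsr1 rose, and Mest and Grb10 fell. The 7 make 21.9% of the genes tested, against 18.7% of all genes, so in this fit the share lay near the background and is not a result about these genes. With no filter on low counts 9 of 34 were called, against 11.2% of 23118 genes. That background takes in genes below the filter and is not like that of the 14742 genes of the main fit. Without 4.5DDC replicate 1, 10 of 32 were called, against 14.8% of all genes. How near the background the share lay thus depended on the fit. In the upward direction there were 5 of 32 against 9.21% of all genes, and in the downward direction 2 of 32 against 9.53%. At an unadjusted p under 0.05 there were 16 of 32, against 35.4% of all genes. The median log2 fold change was 0.28 for the imprinted genes and 0.00 for all genes, and 21 were higher and 11 lower at 6.5DDC. In normalized counts, 4.5DDC and 6.5DDC did not overlap for 12 of 32 genes, against 35.1% of all genes. These were the 7 called genes with Plagl1, Blcap, Commd1, Snrpn and Ube3a. Without 5.5DDC replicate 1 the count of called imprinted genes was 11, where 20.9% of all genes were called, and without 6.5DDC replicate 1 it was 12, where 20.7% were. In replicates 2 and 3 alone, an alternative chosen after seeing the data, it was 17, where 31.3% of all genes were called.

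**Figure D1:**
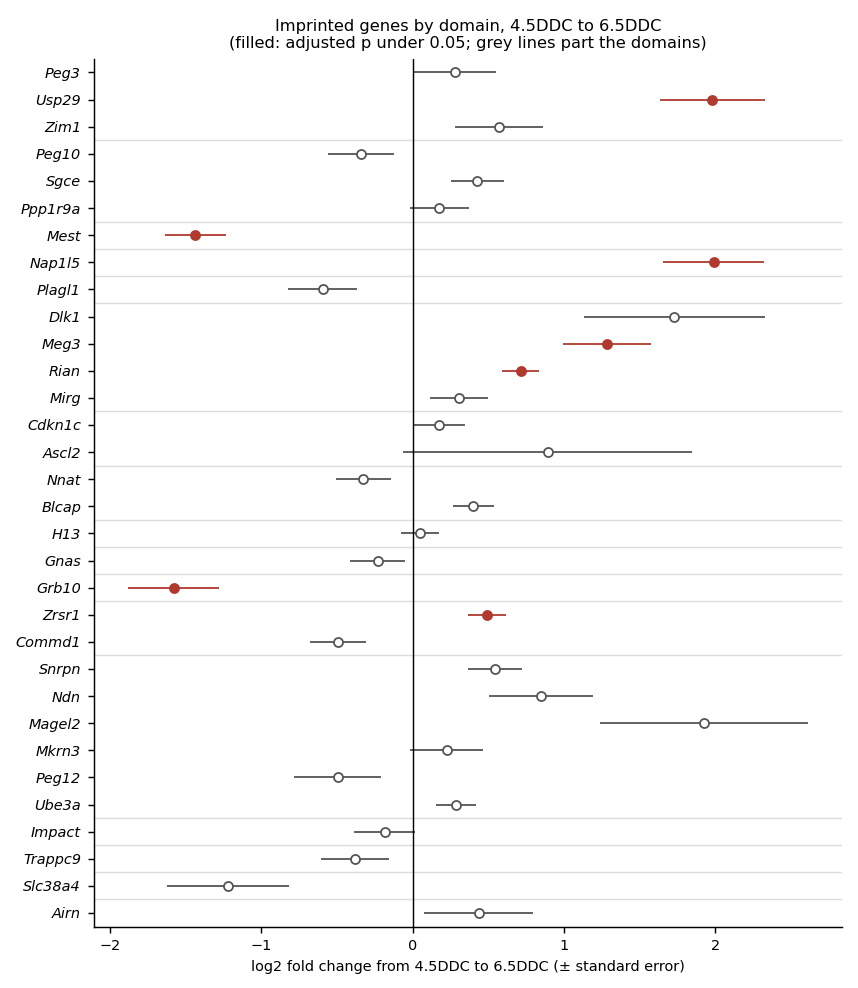
Log2 fold change from 4.5DDC to 6.5DDC (horizontal axis, with standard errors) of the 32 imprinted genes tested, in order of domain from top to bottom. Filled points mark the 7 called genes, from Grb10 at −1.58 to Nap1l5 at 1.99, and grey lines part the domains.

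The Peg3 domain holds the paternally expressed Peg3 and Usp29, whose starts lie 146 bases apart, and the maternally expressed zinc finger gene Zim1. Usp29 encodes a ubiquitin-specific peptidase and was measured at 0.959, 0.892 and 0.904 FPKM at 4.5DDC, 1.41, 1.63 and 1.39 at 5.5DDC and 1.71, 4.22 and 4.71 at 6.5DDC. All 3 libraries of each time point lay above those of the time point before, and at 6.5DDC replicate 1 lay just above the 5.5DDC libraries and well below replicates 2 and 3. Usp29 rose by 1.98 (log2), with a standard error of 0.349 and an adjusted p of 0.0062 (edgeR, Benjamini-Hochberg), and it was called in all 19 alternatives, with adjusted p from 5.79e-06 to 0.031. Of its exon bases, 14.3% are shared with Zim3 on the opposite strand, and reads of the pair cannot be told apart without strand. Peg3, a zinc finger gene that shares the promoter region of Usp29, was far more abundant, with 319, 145 and 194 FPKM at 4.5DDC, 332, 215 and 224 at 5.5DDC and 255, 285 and 256 at 6.5DDC. The groups overlapped, and replicate 1 was highest at 4.5DDC and 5.5DDC. Peg3 stood at 0.28 (log2) between 4.5DDC and 6.5DDC with a standard error of 0.268 and an adjusted p of 0.49 (edgeR, Benjamini-Hochberg), and it was not called. Its value was 0.04 without 4.5DDC replicate 2 and 0.62 without 4.5DDC replicate 1. Whether the change of Usp29 differed from that of Peg3 was not tested. Zim1 was measured at 12.1, 5.36 and 7.36 FPKM at 4.5DDC, 12.3, 9.95 and 11.9 at 5.5DDC and 8.95, 14.1 and 15.4 at 6.5DDC. Its groups overlapped, with replicate 1 highest at 4.5DDC and 5.5DDC and lowest at 6.5DDC. The fitted difference between 4.5DDC and 6.5DDC was 0.57 (log2) with a standard error of 0.29 and an adjusted p of 0.188 (edgeR, Benjamini-Hochberg). It was 0.32 without 4.5DDC replicate 2. Without 4.5DDC replicate 1 Zim1 was called, at 0.93 with an adjusted p of 0.0444 (edgeR, Benjamini-Hochberg; 0.00695 to 0.467 over the alternatives).

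Nap1l5, an intronless gene inside an intron of Herc3 that encodes a nucleosome assembly protein of the brain, was measured at 5.02, 5.08 and 4.63 FPKM at 4.5DDC, 4.73, 10.9 and 11.4 at 5.5DDC and 13.4, 21 and 24.7 at 6.5DDC. The 3 libraries of 6.5DDC lay above the other 6. At 5.5DDC replicates 2 and 3 lay above all 4.5DDC libraries, whereas replicate 1 lay within their range. Nap1l5 rose by 1.99 (log2), with a standard error of 0.333 and an adjusted p of 0.00505 (edgeR, Benjamini-Hochberg), and it was called in all 19 alternatives, with adjusted p from 2.00e-07 to 0.0262. It shares no exon bases with another gene. Summed neuron markers were higher at 6.5DDC than at 4.5DDC within each replicate number. Of the 9, 2 (Map2 and Gata3) rose and 1 (Isl1) fell in edgeR, against 9.21% and 9.53% of all genes. With the replicate number as a block 4 rose and 2 fell, against 13% and 10.2%. Gata3 was not called without 4.5DDC replicate 3 (adjusted p = 0.0557) or 6.5DDC replicate 2 (0.0608; edgeR, Benjamini-Hochberg). The part of these markers in the rise of imprinted genes was not tested.

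The Dlk1-Meg3 domain pairs the paternally expressed Dlk1 with maternally expressed noncoding RNAs transcribed in the same direction, Meg3, Rian and Mirg. From the start of Dlk1 to the end of Mirg, RefSeq lists 54 miRNA hairpins on the same strand, 14 of them in Mirg, 3 in Rian and 1 in Meg3, and 3 on the other strand. Rian, which also hosts small nucleolar RNAs, was measured at 245, 242 and 236 FPKM at 4.5DDC, 213, 261 and 213 at 5.5DDC and 382, 339.5 and 387 at 6.5DDC. The 4.5DDC and 5.5DDC libraries overlapped and all 6.5DDC libraries lay above them. Rian rose by 0.71 (log2), with a standard error of 0.124 and an adjusted p of 0.00581 (edgeR, Benjamini-Hochberg), and it was called in all 19 alternatives, with adjusted p from 9.15e-07 to 0.0284. Meg3, a noncoding RNA of nuclei, had 99.8, 66.3 and 55.1 FPKM at 4.5DDC, 115, 94.2 and 115 at 5.5DDC and 73, 82.2 and 229 at 6.5DDC. In FPKM the groups overlapped and 6.5DDC replicate 3 stood far above the rest. Its normalized counts were 191, 122 and 149.9 CPM at 4.5DDC, 211, 216 and 259 at 5.5DDC and 229.7, 347 and 552 at 6.5DDC. On that scale the 4.5DDC libraries lay below all others. Meg3 rose by 1.28 (log2) in counts, with a standard error of 0.291 and an adjusted p of 0.0164 (edgeR, Benjamini-Hochberg). It was not called without 4.5DDC replicate 2 (adjusted p = 0.0693, edgeR, Benjamini-Hochberg). Nor was Meg3 called with limma on log2(FPKM + 1) (adjusted p = 0.29) and log2(FPKM + 0.1) (0.289). Its adjusted p ranged from 0.000278 to 0.29 over 19 alternatives. The length implied by count and FPKM of a library differed by up to 2.25 times between libraries for Meg3 and 1.92 times for Dlk1, against 1.04 times for Peg3. Of the exon bases of Meg3, 6.79% are shared with an antisense transcript.

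Dlk1 encodes a transmembrane protein with EGF repeats that acts in neurogenesis. It was measured at 8.86, 21.4 and 7.34 FPKM at 4.5DDC, 9.32, 21.5 and 12.4 at 5.5DDC and 8.53, 20.0 and 51.4 at 6.5DDC. In each time point replicate 1 was at or near the lowest value and the groups overlapped, with 6.5DDC replicate 3 the highest of the 9 libraries. Normalized counts gave 8.44, 18 and 8.52 CPM at 4.5DDC, 10.2, 23.4 and 20.1 at 5.5DDC and 12.1, 30.8 and 72.4 at 6.5DDC. In counts Dlk1 differed by 1.73 (log2) between 4.5DDC and 6.5DDC with a standard error of 0.596 and an adjusted p of 0.0697 (edgeR, Benjamini-Hochberg), and it was not called. Dlk1 was called without 6.5DDC replicate 1 (adjusted p = 0.0171) and with replicate number as a block (0.036), and its value was 0.90 without 6.5DDC replicate 3 (edgeR, Benjamini-Hochberg; 0.0098 to 0.356 over the alternatives). Mirg, the host of most of the miRNA hairpins in named genes of the domain, was measured at 17.7, 15.2 and 15.8 FPKM at 4.5DDC, 16.4, 19.9 and 19.3 at 5.5DDC and 17.3, 18.5 and 22 at 6.5DDC, with overlapping groups. Between 4.5DDC and 6.5DDC Mirg was at 0.31 (log2) with a standard error of 0.191 and an adjusted p of 0.275 (edgeR, Benjamini-Hochberg). Without 6.5DDC replicate 3 Mirg was at 0.17. The plot of the domain sets the counts and FPKM of its 4 genes side by side.

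**Figure D2:**
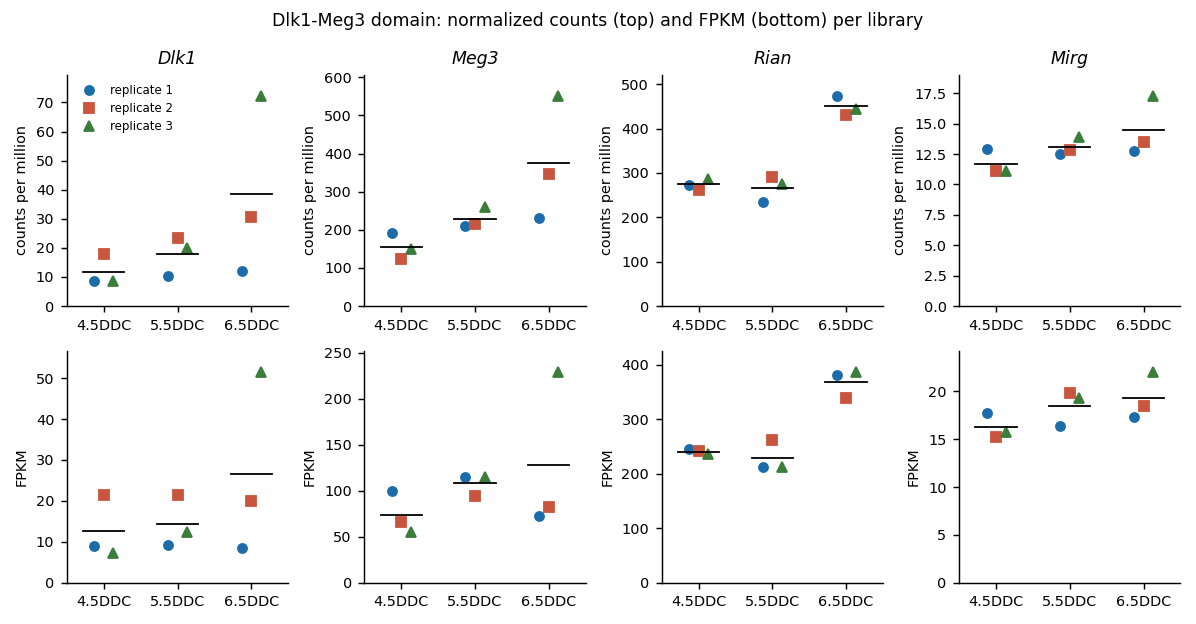
Dlk1, Meg3, Rian and Mirg in the 9 libraries, as CPM (top) and FPKM (bottom) by time point, with a symbol for each replicate number and a bar at the mean of 3 libraries. Rian at 6.5DDC lies above every earlier library on both scales, and 6.5DDC replicate 3 is highest for Meg3, at 552 CPM, and for Dlk1, at 72.4.

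In the Zrsr1-Commd1 domain the paternally expressed Zrsr1, a retrotransposed gene of a U2AF-related splicing factor, lies inside Commd1, a gene of copper transport. Zrsr1 was measured at 7.43, 6.8 and 6.14 FPKM at 4.5DDC, 7.85, 7.57 and 7.1 at 5.5DDC and 9.01, 9.87 and 9.94 at 6.5DDC. The 4.5DDC and 5.5DDC libraries overlapped, and all 6.5DDC libraries lay above them. Zrsr1 rose by 0.49 (log2), with a standard error of 0.127 and an adjusted p of 0.0258 (edgeR, Benjamini-Hochberg). The call was lost without any 1 of the 6 libraries of replicates 2 and 3, that is without 4.5DDC replicate 2 (0.0859), 4.5DDC replicate 3 (0.0679), 5.5DDC replicate 2 (0.0565), 5.5DDC replicate 3 (0.0517), 6.5DDC replicate 2 (0.094) or 6.5DDC replicate 3 (0.0504; edgeR, Benjamini-Hochberg). It stood in 9 of 19 alternatives, with adjusted p from 0.00201 to 0.094. Commd1 was measured at 134, 165 and 136 FPKM at 4.5DDC, 138, 121 and 111 at 5.5DDC and 128, 84.8 and 96.6 at 6.5DDC. Here the 6.5DDC libraries lay below those of 4.5DDC, and 5.5DDC overlapped both. Commd1 stood at −0.49 (log2) between 4.5DDC and 6.5DDC with a standard error of 0.186 and an adjusted p of 0.0917 (edgeR, Benjamini-Hochberg). It was called without 6.5DDC replicate 1 (adjusted p = 0.0153, edgeR, Benjamini-Hochberg; 0.0109 to 0.275 over the alternatives). The genes share 412 exon bases on opposite strands, 9.17% of those of Zrsr1, and Zrsr1 resembles its parent gene Zrsr2, so counts of both are uncertain to that extent.

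Mest and Grb10 were the genes called lower at 6.5DDC. Mest, paternally expressed, encodes a hydrolase-like protein of the endoplasmic reticulum and was measured at 304, 542 and 404 FPKM at 4.5DDC, 241, 213 and 218 at 5.5DDC and 129, 173 and 159 at 6.5DDC. Each time point lay wholly below the one before. Mest fell by 1.44 (log2), with a standard error of 0.202 and an adjusted p of 0.00256 (edgeR, Benjamini-Hochberg), and it was called in all 19 alternatives, with adjusted p from 4.69e-09 to 0.0113. Of its exon bases 23.1% are shared with Copg2 on the opposite strand. Copg2, a coatomer gene, had 29.8, 25.1 and 37.7 FPKM at 4.5DDC, 26.9, 27.7 and 32.9 at 5.5DDC and 37.2, 36.7 and 30.8 at 6.5DDC, with overlapping groups. Grb10, maternally expressed in most tissues and paternally in neurons, encodes an adaptor that dampens insulin and IGF signalling and was measured at 3.86, 1.08 and 1.3 FPKM at 4.5DDC, 0.391, 0.699 and 0.571 at 5.5DDC and 0.837, 0.4 and 0.965 at 6.5DDC. The 4.5DDC libraries lay above all others, and 5.5DDC and 6.5DDC overlapped. Its normalized counts were 9.11, 6.41 and 7.13 CPM at 4.5DDC, 2.31, 4.08 and 3.5 at 5.5DDC and 3.03, 2.45 and 2.13 at 6.5DDC. Grb10 fell by 1.58 (log2), with a standard error of 0.302 and an adjusted p of 0.00834 (edgeR, Benjamini-Hochberg). It was not called with limma on log2(FPKM + 1) (adjusted p = 0.12) or log2(FPKM + 0.1) (0.118), and its adjusted p ranged from 9.69e-05 to 0.12 over 19 alternatives. For Grb10 the implied length differed by up to 2.71 times between libraries.

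**Figure D3:**
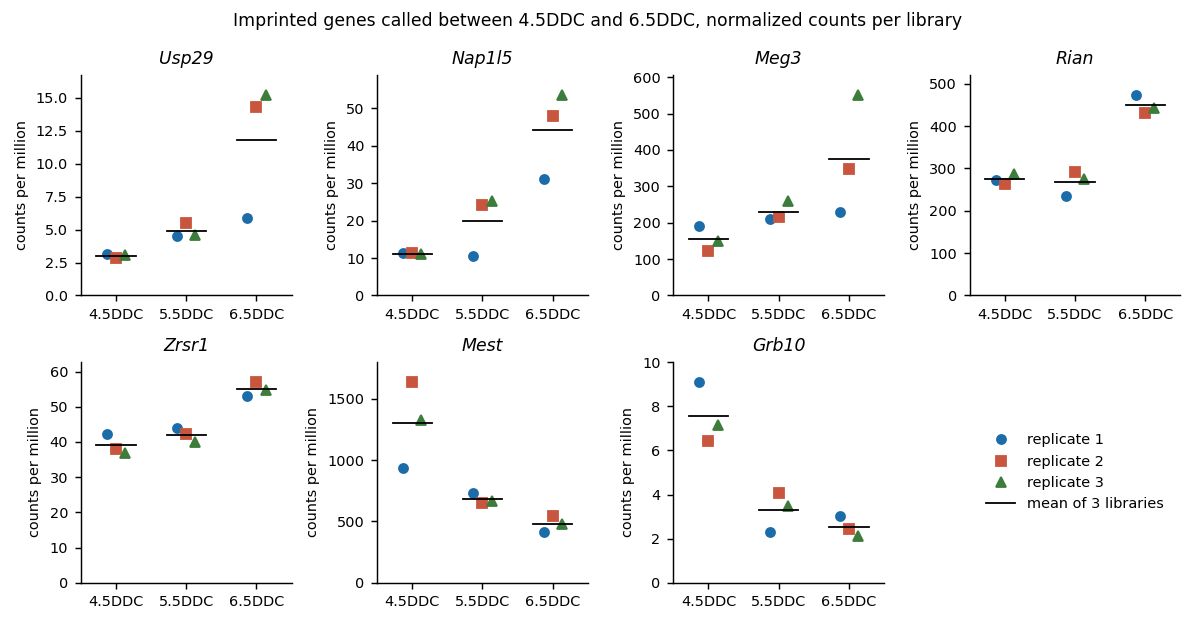
Normalized counts (CPM, vertical axis from 0) of the 7 imprinted genes called between 4.5DDC and 6.5DDC, by time point, with a symbol for each replicate number and a bar at the mean of 3 libraries. Usp29 ran from 2.81 to 15.2 and Mest from 1639 down to 416, and in every panel the 4.5DDC and 6.5DDC libraries do not overlap.

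The shorter intervals share the 5.5DDC libraries. From 4.5DDC to 5.5DDC, 0 of 32 imprinted genes were called by edgeR, against 0.0746% of all genes. At an unadjusted p under 0.05 there were 5 (15.6%), against 15.4% of all genes. The genes with the lowest p were Mest, at −0.93 (log2) with a standard error of 0.2, and Grb10, at −1.21 with 0.298. DESeq2 called these 2, against 3.36% of all genes, and limma voom and both limma fits of FPKM called 0. When replicate number entered the model as a block, 1 was called, against 1.44% of all genes. This was Slc38a4, which fell by 1.12 (log2) with a standard error of 0.22 and an adjusted p of 0.0435, against 0.237 without the block (edgeR, Benjamini-Hochberg; 0.0204 to 0.576 over the alternatives). In replicates 2 and 3 alone, chosen after seeing the data, 3 were called (Mest, Nap1l5 and Slc38a4), against 3.31% of all genes.

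From 5.5DDC to 6.5DDC, 0 of 32 imprinted genes were called by edgeR, against 0.224% of all genes. At an unadjusted p under 0.05 there were 9 (28.1%), against 18.5% of all genes. The lowest p was that of Rian, at 0.75 (log2), with a standard error of 0.124 and an adjusted p of 0.0518 (edgeR, Benjamini-Hochberg). Usp29 stood at 1.28 and Nap1l5 at 1.16. DESeq2 called these 3, against 4.55% of all genes, limma voom called 1 (Rian), against 0.251%, and both limma fits of FPKM called 0. When replicate number entered the model as a block, 1 was called, against 1.32% of all genes, and it was again Rian, which rose by 0.75 (log2) with a standard error of 0.145 and an adjusted p of 0.0445 (edgeR, Benjamini-Hochberg; 2.40e-06 to 0.275 over the alternatives). Without 6.5DDC replicate 1 there were 2, where 1.29% of all genes were called, Rian (adjusted p = 0.0476) and Usp29 (0.0204, edgeR, Benjamini-Hochberg; 0.0161 to 0.478 over its alternatives). In replicates 2 and 3 alone, chosen after seeing the data, 3 were called (Nap1l5, Rian and Usp29), against 4.97% of all genes.

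By replicate number, with the time point in the model, 2 of 32 imprinted genes were called, or 6.25% against 5.41% of all genes, a share near the background and not a result about these genes. With DESeq2 there were 5, against 8.51% of all genes, and with limma voom 3, against 5.06%. The limma fits of log2(FPKM + 1) and log2(FPKM + 0.1) called 0, against 1.52% and 1.87%. Magel2, a gene of the Snrpn domain whose protein takes part in ubiquitination of endosomal proteins, was measured at 1.4, 3.58 and 1.85 FPKM at 4.5DDC, 1.43, 5.29 and 5.76 at 5.5DDC and 2.18, 8.62 and 15.5 at 6.5DDC. Replicate 1 was lowest at each time point, and the time points overlapped. Replicate 2 stood 1.69 and replicate 3 1.81 (log2) above replicate 1, with an adjusted p of 0.0323 (edgeR, Benjamini-Hochberg). The call was lost without 4.5DDC replicate 2 (0.0911), 5.5DDC replicate 1 (0.168), 5.5DDC replicate 2 (0.0527), 5.5DDC replicate 3 (0.0581), 6.5DDC replicate 1 (0.124) or 6.5DDC replicate 2 (0.0517), and over the 16 alternatives that hold replicate 1 the adjusted p ran from 5.89e-06 to 0.168. Slc38a4, an amino acid transporter gene, was measured at 7.22, 18 and 19.2 FPKM at 4.5DDC, 4.03, 9.26 and 9.2 at 5.5DDC and 5.67, 7.12 and 6.65 at 6.5DDC. Replicate 1 was again lowest at each time point, and the 4.5DDC libraries lay above those of 6.5DDC in FPKM but overlapped them in normalized counts. Replicate 2 stood 0.99 and replicate 3 0.997 (log2) above replicate 1, with an adjusted p of 0.0434 (edgeR, Benjamini-Hochberg). The call was lost without 4.5DDC replicate 1 (0.276), 4.5DDC replicate 2 (0.0958), 5.5DDC replicate 1 (0.249), 5.5DDC replicate 2 (0.112), 5.5DDC replicate 3 (0.1) or 6.5DDC replicate 2 (0.0852), and over the same 16 alternatives the adjusted p ran from 0.000807 to 0.276. Replicates 2 and 3 alone, with 0 of the imprinted genes and 0 of all genes called by edgeR, hold no library of replicate 1 and so cannot show a difference from it. The count was 1 without 4.5DDC replicate 1 (where 2.41% of all genes were called), 5 without 6.5DDC replicate 3 (8.41%), and 0 without 4.5DDC replicate 2 (2.98%), 6.5DDC replicate 2 (3.85%) or 5.5DDC replicate 1, 2 or 3 (1.38%, 2.87% and 3%).

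Leaving out 1 library also moved other imprinted genes across the threshold by replicate number. Dlk1 was called without 4.5DDC replicate 3 (adjusted p = 0.0367, edgeR, Benjamini-Hochberg), with a range over the 16 alternatives that hold replicate 1 from 0.015 to 0.578. Without 6.5DDC replicate 3, Dlk1 (0.015), Ndn (0.0104) and Peg10 (0.0457) joined Magel2 and Slc38a4, and Plagl1 was called without 6.5DDC replicate 1 (0.0492; edgeR, Benjamini-Hochberg). Over those alternatives the adjusted p ran from 0.0104 to 0.405 for Ndn, from 0.035 to 0.616 for Peg10 and from 0.0492 to 1 for Plagl1. The summed neuron and mesenchyme markers were lowest in replicate 1 at 4.5DDC and 6.5DDC, as for Magel2, and the neuron markers at 5.5DDC as well. Defining neuron markers were above 0 in all 9 libraries, with Dcx at 7.5, 30.0 and 25.7 FPKM at 4.5DDC, 6.44, 37.8 and 38.6 at 5.5DDC and 20.0, 74.3 and 78.9 at 6.5DDC. Their part in the difference between replicate numbers was not tested.

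**Figure D4:**
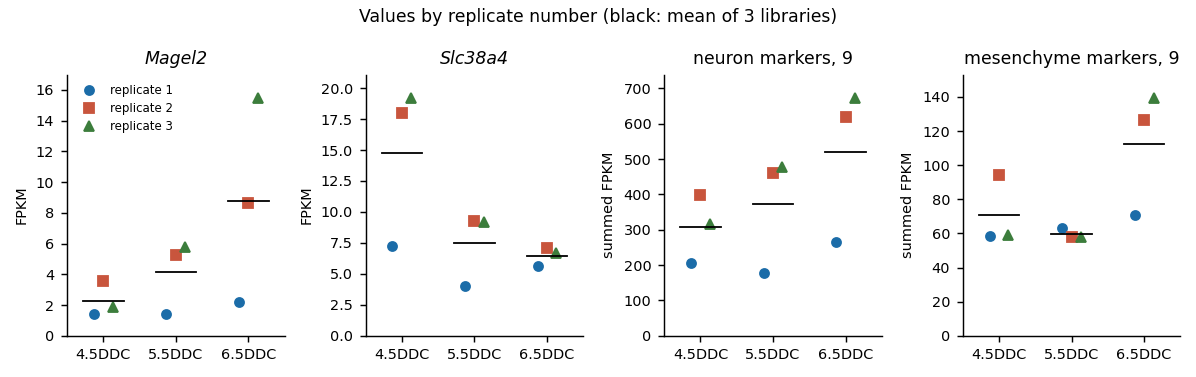
Magel2 and Slc38a4 in FPKM and the summed FPKM of 9 neuron and 9 mesenchyme markers in the 9 libraries (vertical axes from 0), by time point, with a symbol for each replicate number and a bar at the mean of 3 libraries. Replicate 1 is lowest in the panels of both genes and of neuron markers at each time point, and among mesenchyme markers it is highest at 5.5DDC.

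Magel2 belongs to the domain that is silenced or deleted in Prader-Willi and Angelman syndromes. Over the whole span it differed by 1.93 (log2), with a standard error of 0.688 and an adjusted p of 0.0781 (edgeR, Benjamini-Hochberg). It was called without 5.5DDC replicate 1 (adjusted p = 0.0426) and without 6.5DDC replicate 1 (0.0216; edgeR, Benjamini-Hochberg), with 0.00319 to 0.223 over the alternatives. With replicate number as a block Magel2 was called as well, at 1.63 with an adjusted p of 0.0121 (edgeR, Benjamini-Hochberg). Snrpn, which encodes a small nuclear ribonucleoprotein of the spliceosome, was measured at 64.8, 84.8 and 64.8 FPKM at 4.5DDC, 67.9, 97.1 and 85.4 at 5.5DDC and 80.2, 113 and 116 at 6.5DDC. At 6.5DDC replicates 2 and 3 stood above all other libraries. The fitted difference between 4.5DDC and 6.5DDC was 0.55 (log2) with a standard error of 0.178 and an adjusted p of 0.059 (edgeR, Benjamini-Hochberg). It was called without 5.5DDC replicate 1 (adjusted p = 0.0436), without 6.5DDC replicate 1 (0.0243) and with the replicate block (0.0217; edgeR, Benjamini-Hochberg), with 0.0171 to 0.184 over the alternatives. Of its exon bases, 27.3% are shared with another transcript on the same strand. Ndn, the gene of the growth-suppressing protein necdin, had 33.8, 65.7 and 37.9 FPKM at 4.5DDC, 46.6, 73.1 and 61 at 5.5DDC and 45.5, 80.6 and 124 at 6.5DDC. At each time point replicate 1 was lowest, and the groups overlapped. In counts Ndn differed by 0.85 (log2) between 4.5DDC and 6.5DDC with a standard error of 0.345 and an adjusted p of 0.111 (edgeR, Benjamini-Hochberg). It was called without 6.5DDC replicate 1 (adjusted p = 0.0299) and with the replicate block (0.0331), and it was 0.49 without 6.5DDC replicate 3 (edgeR, Benjamini-Hochberg; 0.0286 to 0.323 over the alternatives).

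Peg12, a gene of the Frat family that binds Gsk3, was measured at 19.5, 43.1 and 43.2 FPKM at 4.5DDC, 22.4, 33 and 33.1 at 5.5DDC and 22, 26.1 and 27.7 at 6.5DDC. The groups overlapped, and replicate 1 had the lowest value of each. It differed by −0.50 (log2) between 4.5DDC and 6.5DDC, with a standard error of 0.289 and an adjusted p of 0.248 (edgeR, Benjamini-Hochberg), and without 4.5DDC replicate 1 it was called at −0.80 with an adjusted p of 0.0264 (edgeR, Benjamini-Hochberg; 0.00473 to 0.562 over the alternatives). Without 4.5DDC replicate 3 Peg12 was at −0.28. Ube3a, a ubiquitin ligase gene of this domain expressed from the maternal copy in neurons, had 23.7, 22.3 and 24.8 FPKM at 4.5DDC, 22.7, 24.4 and 24.2 at 5.5DDC and 25.7, 32.6 and 28.5 at 6.5DDC. The 4.5DDC and 5.5DDC libraries overlapped, and all 6.5DDC libraries lay above them. Between 4.5DDC and 6.5DDC Ube3a was at 0.29 (log2) with a standard error of 0.13 and an adjusted p of 0.148 (edgeR, Benjamini-Hochberg). Without 6.5DDC replicate 2 it was at 0.18. Of its exon bases, 8.74% are shared with the antisense transcript Snhg14. Mkrn3, a makorin RING finger gene, ranged from 5.94 to 10.8 FPKM and stood at 0.22 (log2) between 4.5DDC and 6.5DDC, with a standard error of 0.242 and an adjusted p of 0.543 (edgeR, Benjamini-Hochberg). Leaving out 1 of the libraries of 4.5DDC or 6.5DDC moved this value to between 0.10 (without 6.5DDC replicate 3) and 0.44 (without 4.5DDC replicate 2).

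In the Peg10-Sgce domain none of the 3 genes was called in edgeR between time points or by replicate number, over all 9 libraries. Peg10, a gene derived from a retrotransposon and needed in the placenta, was measured at 221, 295 and 284 FPKM at 4.5DDC, 135, 216 and 217 at 5.5DDC and 160.1, 239.7 and 231 at 6.5DDC. Replicate 1 was lowest at each time point, and the 4.5DDC libraries lay above those of 5.5DDC. Sgce, which encodes epsilon-sarcoglycan and starts 98 bases from Peg10, was measured at 88.7, 71.2 and 83.6 FPKM at 4.5DDC, 113, 91.2 and 92.8 at 5.5DDC and 128, 109 and 95.8 at 6.5DDC, with replicate 1 highest at each time point and 4.5DDC below the others in FPKM, although its normalized counts overlapped. Ppp1r9a, the gene of the actin-binding protein neurabin, was measured at 15.6, 11.3 and 14.4 FPKM at 4.5DDC, 17.6, 17.5 and 18.4 at 5.5DDC and 12.2, 18.7 and 18.9 at 6.5DDC, and its normalized counts overlapped. Plagl1, a zinc finger transcription factor gene, had 31.9, 22.4 and 19.2 FPKM at 4.5DDC, 32.7, 20.1 and 18.1 at 5.5DDC and 15.4, 18.3 and 17.2 at 6.5DDC. Replicate 1 was highest at 4.5DDC and 5.5DDC and lowest at 6.5DDC, and the 6.5DDC libraries lay below those of 4.5DDC. Plagl1 stood at −0.60 (log2) between 4.5DDC and 6.5DDC with a standard error of 0.23 and an adjusted p of 0.0969 (edgeR, Benjamini-Hochberg), and without 5.5DDC replicate 1 it was called (adjusted p = 0.0446, edgeR, Benjamini-Hochberg; 0.0446 to 0.28 over the alternatives). Without 4.5DDC replicate 1 Plagl1 was at −0.37.

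Cdkn1c, the gene of the CDK inhibitor p57 in the Kcnq1ot1 domain, was measured at 47.9, 43.1 and 34.1 FPKM at 4.5DDC, 41.3, 47.7 and 40.8 at 5.5DDC and 57, 39.1 and 46.1 at 6.5DDC. The groups overlapped, and 30.7% of its exon bases are shared with an antisense transcript. Blcap, a small membrane protein gene around Nnat, was measured at 36.2, 33.5 and 42.9 FPKM at 4.5DDC, 39.7, 41.5 and 46.4 at 5.5DDC and 51.3, 44.9 and 50.4 at 6.5DDC. The 6.5DDC libraries lay above those of 4.5DDC. The fitted difference between 4.5DDC and 6.5DDC was 0.40 (log2) with a standard error of 0.135 and an adjusted p of 0.0656 (edgeR, Benjamini-Hochberg), and without 4.5DDC replicate 3 it was called (adjusted p = 0.0376, edgeR, Benjamini-Hochberg; 0.0339 to 0.206 over the alternatives). H13, the gene of signal peptide peptidase, was measured at 20.7, 17.7 and 18.3 FPKM at 4.5DDC, 17.2, 17.9 and 19.1 at 5.5DDC and 20.9, 18.4 and 20.7 at 6.5DDC, with overlapping groups. Impact, whose product inhibits a kinase of translation initiation, was measured at 66.8, 58.4 and 64.1 FPKM at 4.5DDC, 45.8, 51.3 and 51 at 5.5DDC and 72.3, 53.5 and 41.6 at 6.5DDC. The 5.5DDC libraries lay below those of 4.5DDC, and 6.5DDC overlapped both. Slc38a4 over the whole span stood at −1.22 (log2), with a standard error of 0.404 and an adjusted p of 0.0622 (edgeR, Benjamini-Hochberg). It was called without 4.5DDC replicate 1 (adjusted p = 0.0173), without 5.5DDC replicate 1 (0.0333) and with the replicate block (0.00789; edgeR, Benjamini-Hochberg), with 0.00121 to 0.172 over the alternatives. Trappc9, a gene of vesicle tethering, ranged from 4.15 to 9.11 FPKM, and Airn, the noncoding RNA antisense to Igf2r, from 2.55 to 6.51.

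A list of 43 further imprinted genes and neighbours was read for comparison, of which 33 were tested. It was chosen with earlier results of these data known. Between 4.5DDC and 6.5DDC, 3 of the 33 rose (9.1%) and 2 fell (6.1%), against 9.21% and 9.53% of all genes, shares no higher than the background. The count of 5 was 3 without 4.5DDC replicate 2 and 2 without 6.5DDC replicate 2, where the share of all genes also fell, to 7.61% and 7.56%. Qpct, a glutaminyl cyclase gene, was measured at 1.22, 1.4 and 1.9 FPKM at 4.5DDC, 1.8, 2.54 and 2.35 at 5.5DDC and 3.39, 4.74 and 5.3 at 6.5DDC. In all 3 libraries of 6.5DDC it lay above the other 6. Qpct rose by 1.56 (log2), with a standard error of 0.277 and an adjusted p of 0.00623 (edgeR, Benjamini-Hochberg). Adam23, a surface protein gene of neurons, was measured at 8.26, 6.05 and 5.09 FPKM at 4.5DDC, 9.27, 13 and 12.7 at 5.5DDC and 17.8, 15.4 and 13.9 at 6.5DDC. All 6.5DDC libraries again lay above the other 6. Adam23 rose by 1.11, with a standard error of 0.183 and an adjusted p of 0.00494 (edgeR, Benjamini-Hochberg). For both, the call stood in all 19 alternatives. Tssc4, a gene of spliceosome assembly, was measured at 17.9, 27.6 and 11.7 FPKM at 4.5DDC, 21.3, 15 and 14.5 at 5.5DDC and 9.38, 7.49 and 11.4 at 6.5DDC. The 6.5DDC libraries lay below the other 6, the highest of them just below the lowest of 4.5DDC. Tssc4 fell by 1.06, with a standard error of 0.29 and an adjusted p of 0.0323 (edgeR, Benjamini-Hochberg). The call was lost without 4.5DDC replicate 1 (0.058), 4.5DDC replicate 2 (0.118), 6.5DDC replicate 1 (0.0597) or 6.5DDC replicate 2 (0.118) and was kept in 10 of 19 alternatives, with a highest adjusted p of 0.118 (edgeR, Benjamini-Hochberg). The other rise and fall lay outside the rule for naming and were named after their values were seen. Axl, a receptor tyrosine kinase gene, had 7.23, 8.81 and 6.32 FPKM at 4.5DDC, 14.8, 11.3 and 15.8 at 5.5DDC and 10.5, 17.6 and 19.7 at 6.5DDC, with 4.5DDC below both later time points. It rose by 0.89 (standard error 0.259; adjusted p = 0.0395, edgeR, Benjamini-Hochberg), and its call was lost without 4.5DDC replicate 2 (0.128), 4.5DDC replicate 3 (0.103), 5.5DDC replicate 2 (0.0537), 5.5DDC replicate 3 (0.0633), 6.5DDC replicate 2 (0.125) or 6.5DDC replicate 3 (0.106) and kept in 10 of 19 alternatives. Nespas, a noncoding RNA antisense to Gnas, had 1.14, 0.965 and 0.659 FPKM at 4.5DDC, 0.711, 0.555 and 0.547 at 5.5DDC and 0.233, 0.155 and 0.277 at 6.5DDC, with 6.5DDC below both earlier time points. It fell by 1.93 (standard error 0.394; adjusted p = 0.0106, edgeR, Benjamini-Hochberg), and its call was lost without 6.5DDC replicate 2 (adjusted p = 0.0506, edgeR, Benjamini-Hochberg).

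By replicate number 9 of these 33 genes were called (27.3%), against 5.41% of all genes. Replicate 1 was lower than both others in 5 of the 9 and higher in 4. The count was 4 without 4.5DDC replicate 1, 5 without 4.5DDC replicate 2 and 5 without 5.5DDC replicate 2, where the share of all genes also fell, to 2.41%, 2.98% and 2.87%. Dcn, a proteoglycan gene that also stands among the mesenchyme markers, had 4.91, 8.85 and 24.2 FPKM at 4.5DDC, 6.45, 20.4 and 22.1 at 5.5DDC and 17.5, 61.9 and 63.8 at 6.5DDC. Replicate 1 was lowest at each time point, and the call (adjusted p = 0.01) was lost without 4.5DDC replicate 1 (0.058; edgeR, Benjamini-Hochberg). Inpp5f, a phosphoinositide phosphatase gene, had 24, 39.7 and 37.4 FPKM at 4.5DDC, 16.9, 52.2 and 46 at 5.5DDC and 37.5, 80.9 and 86.3 at 6.5DDC, with an adjusted p of 0.00711 (edgeR, Benjamini-Hochberg). Here too replicate 1 had the lowest value of each time point. The 4 with higher values in replicate 1 (Smoc1, Pon3, Cobl and Pon2) were named after their values were seen, as were H19 and Igf2. Smoc1, a matricellular protein gene, had 14.7, 4.34 and 4.53 FPKM at 4.5DDC, 9.47, 3.31 and 4.06 at 5.5DDC and 13.6, 3.08 and 3.49 at 6.5DDC. Pon3, a paraoxonase gene, had 23, 2.95 and 4.38 FPKM at 4.5DDC, 18.5, 5.41 and 5.22 at 5.5DDC and 22.2, 9.92 and 6.53 at 6.5DDC. In both, replicate 1 was highest at each time point. Replicates 2 and 3 stood at −1.85 and −1.64 (log2) against replicate 1 for Smoc1, with an adjusted p of 0.00219, and at −1.76 and −1.78 for Pon3, with 0.00502 (edgeR, Benjamini-Hochberg). Both calls were kept when any 1 library was left out. Cobl, an actin nucleator gene, stood at −0.89 and −0.75 (adjusted p = 0.0443, edgeR, Benjamini-Hochberg), and its call was lost without 4.5DDC replicate 1 (0.3), 4.5DDC replicate 2 (0.106), 4.5DDC replicate 3 (0.0624), 5.5DDC replicate 2 (0.0816), 5.5DDC replicate 3 (0.0635), 6.5DDC replicate 1 (0.166) or 6.5DDC replicate 2 (0.0918). Pon2, another paraoxonase gene, stood at −0.81 and −0.81 (adjusted p = 0.0409, edgeR, Benjamini-Hochberg), and its call was lost without 4.5DDC replicate 1 (0.177), 4.5DDC replicate 2 (0.0764), 5.5DDC replicate 1 (0.102), 5.5DDC replicate 2 (0.0595), 5.5DDC replicate 3 (0.102), 6.5DDC replicate 1 (0.161) or 6.5DDC replicate 2 (0.094). H19, a noncoding RNA imprinted oppositely to its neighbour Igf2, had 234, 299 and 200.5 FPKM at 4.5DDC, 206, 383 and 392 at 5.5DDC and 401, 346 and 403 at 6.5DDC. Its 6.5DDC libraries lay above those of 4.5DDC in FPKM and overlapped them in normalized counts. Igf2, a fetal growth factor gene, had 27.7, 68.3 and 36.6 FPKM at 4.5DDC, 22.4, 68.2 and 68.7 at 5.5DDC and 36.9, 70.8 and 77.4 at 6.5DDC. Replicate 1 was lowest at each time point, and the call by replicate number (adjusted p = 0.0237, edgeR, Benjamini-Hochberg) was lost without 4.5DDC replicate 1 (0.0704), 4.5DDC replicate 2 (0.0714), 5.5DDC replicate 1 (0.117), 5.5DDC replicate 2 (0.0516) or 6.5DDC replicate 1 (0.0503).

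Factors that keep or read imprints formed a list of 16, of which 13 were tested (Ctcfl, Dppa3 and Zfp42 were below the filter). This list too was chosen with earlier results of these data known. Between 4.5DDC and 6.5DDC, 6 of the 13 fell (46.2%) and 0 rose in edgeR, against 9.53% and 9.21% of all genes. The count of 6 was 3 without 4.5DDC replicate 3, 3 without 6.5DDC replicate 2 and 3 without 6.5DDC replicate 3, where 13.4%, 7.56% and 13.9% of all genes were called in either direction, against 18.7% over all 9 libraries. Uhrf1, which brings Dnmt1 to newly copied DNA, was measured at 116, 139 and 134 FPKM at 4.5DDC, 57.6, 65 and 82.9 at 5.5DDC and 42, 20.9 and 25.9 at 6.5DDC. Each time point lay below the one before. It fell by 2.36 (log2), with a standard error of 0.232 and an adjusted p of 0.000844 (edgeR, Benjamini-Hochberg). Dnmt1, the maintenance methyltransferase, was measured at 55.9, 74.7 and 63.3 FPKM at 4.5DDC, 34.1, 43.9 and 50.7 at 5.5DDC and 27, 21 and 21.5 at 6.5DDC. Each time point again lay below the one before. Dnmt1 fell by 1.48, with a standard error of 0.191 and an adjusted p of 0.00185 (edgeR, Benjamini-Hochberg). Trim28, the partner through which Zfp57 recruits repressors, was measured at 826, 997 and 725 FPKM at 4.5DDC, 666, 668 and 795 at 5.5DDC and 459.9, 411 and 538 at 6.5DDC. The 4.5DDC and 5.5DDC libraries overlapped, and those of 6.5DDC lay below both. Trim28 fell by 0.90, with a standard error of 0.146 and an adjusted p of 0.0046 (edgeR, Benjamini-Hochberg). Uhrf1, Dnmt1 and Trim28 were called in all 19 alternatives.

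Smaller falls were called for Eed, a Polycomb subunit, Smchd1, a chromatin protein needed for some imprinted clusters, and Ctcf, which insulates enhancers at unmethylated control regions. Eed had 30.0, 32.2 and 35.3 FPKM at 4.5DDC, 22.6, 20.7 and 18.7 at 5.5DDC and 24.6, 17.9 and 15.8 at 6.5DDC. The 4.5DDC libraries lay above the other 6, and 5.5DDC and 6.5DDC overlapped. Eed fell by 0.75 (log2), with a standard error of 0.191 and an adjusted p of 0.0255 (edgeR, Benjamini-Hochberg). Its call was lost without 4.5DDC replicate 2 (0.0714), 4.5DDC replicate 3 (0.0753), 6.5DDC replicate 2 (0.097) or 6.5DDC replicate 3 (0.065) and kept in 14 of 19 alternatives. Smchd1 had 31.8, 30.2 and 36 FPKM at 4.5DDC, 21, 27.2 and 28.2 at 5.5DDC and 22.5, 24 and 19.2 at 6.5DDC. Again 4.5DDC lay above the other 6 libraries, and 5.5DDC and 6.5DDC overlapped. Smchd1 fell by 0.70, with a standard error of 0.166 and an adjusted p of 0.0193 (edgeR, Benjamini-Hochberg). Its call was lost without 4.5DDC replicate 3 (0.0574), 6.5DDC replicate 2 (0.0519) or 6.5DDC replicate 3 (0.0584) and kept in 16 of 19 alternatives. Ctcf had 60.4, 62.5 and 66.7 FPKM at 4.5DDC, 46.9, 52.3 and 56.3 at 5.5DDC and 46.6, 43.7 and 40.1 at 6.5DDC. Each time point lay wholly under the one before in FPKM. Ctcf fell by 0.52, with a standard error of 0.141 and an adjusted p of 0.032 (edgeR, Benjamini-Hochberg). Its call was lost without 4.5DDC replicate 2 (0.0713), 4.5DDC replicate 3 (0.0918), 5.5DDC replicate 2 (0.0605), 5.5DDC replicate 3 (0.0582), 6.5DDC replicate 2 (0.0915) or 6.5DDC replicate 3 (0.0866) and kept in 12 of 19 alternatives. From 5.5DDC to 6.5DDC 1 of the 13 was called, against 0.224% of all genes, Uhrf1, which fell by 1.43 (standard error 0.226; adjusted p = 0.0459, edgeR, Benjamini-Hochberg). That call stood in 8 of 19 alternatives and was lost without 4.5DDC replicate 1 (0.0732), 4.5DDC replicate 2 (0.0623), 4.5DDC replicate 3 (0.0856), 5.5DDC replicate 1 (0.0629), 5.5DDC replicate 2 (0.184), 5.5DDC replicate 3 (0.231), 6.5DDC replicate 2 (0.279) or 6.5DDC replicate 3 (0.105). Zfp57, which binds the methylated hexamer, had 45.7, 40.1 and 44.4 FPKM at 4.5DDC, 43.3, 57.5 and 59.8 at 5.5DDC and 25.4, 59 and 82.6 at 6.5DDC, with overlapping groups. Dppa3 was listed at 0 in all 9 libraries.

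**Figure D5:**
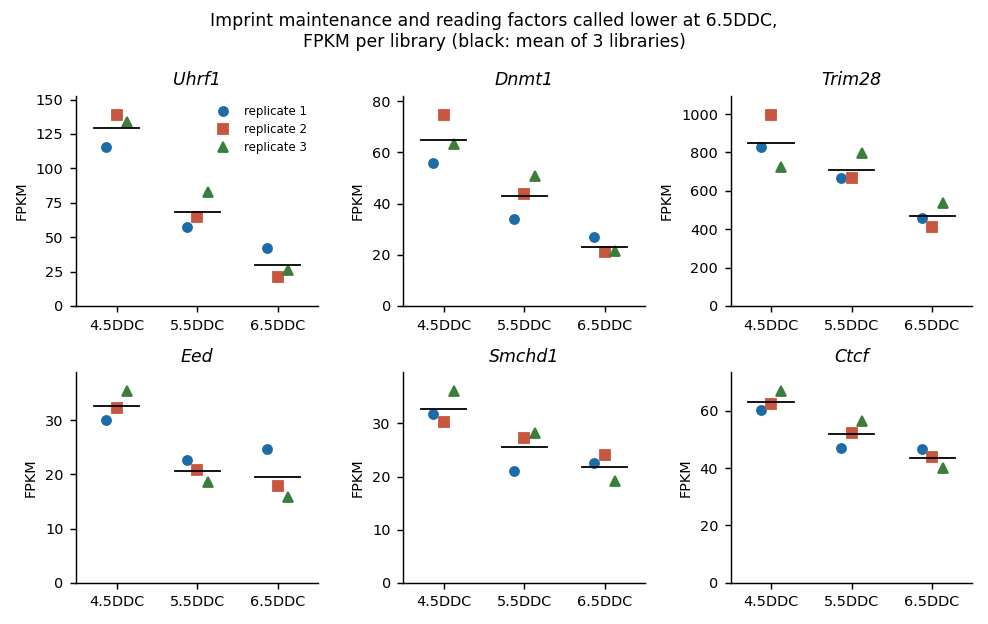
FPKM (vertical axes from 0) of the 6 imprint maintenance and reading factors called lower at 6.5DDC than at 4.5DDC, by time point, with a symbol for each replicate number and a bar at the mean of 3 libraries. Uhrf1 ran from 139 down to 20.9, and in each panel all 4.5DDC libraries lie above all 6.5DDC libraries.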

How the data were processed

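The authors deposited estimated counts per gene and FPKM for each of 9 libraries, and the submitters' processing notes name bcl2fastq 1.8.3, TopHat2 2.0.4, HTSeq 0.6.1 and Cufflinks 2.1.1. The strand setting and the annotation release were not given in the sources used here. Of 38197 symbols, 98 had counts that were not whole, 0 of them in the imprinted list, and all counts, assumed to be whole read counts when the tests were chosen, were rounded. The deposited voom table, a log2 transform of the counts, was not used here.

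All lists (imprinted genes, further imprinted genes and neighbours, maintenance and reading factors, and markers) were chosen with earlier results of these data known. Named were all imprinted genes of the list, and of the further lists the called genes with the largest fold change among those with a group mean of 1 FPKM or more, up to 6 per list. Counts were tested with edgeR 4.0.16 (R 4.3.3): filterByExpr kept 14742 genes, TMM factors lay between 0.951 and 1.04, the common dispersion was 0.0733, and quasi-likelihood F tests had 6 residual degrees of freedom, or 4 with the replicate number in the model. Genes with a Benjamini-Hochberg adjusted p under 0.05 were called. Other than as an alternative, a replicate number was used as a block only for intervals in which the libraries of each number deviated from their group mean together. Those correlations across genes were 0.743, 0.386 and 0.452 between 4.5DDC and 5.5DDC, 0.454, 0.367 and 0.197 between 5.5DDC and 6.5DDC, and 0.383, −0.0396 and −0.215 between 4.5DDC and 6.5DDC. The last span was therefore blocked only as an alternative. Libraries of different numbers correlated at −0.653 to −0.123 when 1 of them was replicate 1 and at 0.225 to 0.487 between replicates 2 and 3, so the pairing sets replicate 1 against the others and does not tell replicate 2 from replicate 3.

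Alternatives were DESeq2 size factors (RLE), library totals, no filter, DESeq2 1.42.0, limma 3.58.1 (voom, and on log2(FPKM + 1) and log2(FPKM + 0.1)), the replicate block, the 6 libraries compared, leaving out each library, and replicates 2 and 3 alone, which was chosen after seeing the data. Where 2 libraries remained in a group, the fit pooled the spread over groups. A floor of 3 counts equals 0.118 to 0.271 CPM, which covers counting error only. Positions and exons came from GENCODE M21 on GRCm38, and promoters from RefSeq on GRCm38.p6. The fits were tested on simulated counts. Tables and plots were made with Python 3.11.15, pandas 2.3.3, numpy 2.4.6 and matplotlib 3.10.9.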

Additional observations from a re-analysis of the deposited data

How the results depend on the processing

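Recomputed under the alternatives were 395 values of single imprinted genes. Most were fold changes from 4.5DDC to 6.5DDC of members of domains with a called gene. The rest were adjusted p by replicate number of Magel2 and Slc38a4, which have no direction. Of the 395, 331 kept their side of the threshold, 30 passed it only under the alternative and 34 no longer passed it. Of the fold changes, 0 reversed. Fold changes of the other domains and of the shorter intervals were not entered, so reversals there were not counted. Of 74 recomputed counts of called imprinted genes, 43 lay within 1.5 times the count reported, 19 were higher and 12 lower. From 4.5DDC to 5.5DDC the count of imprinted genes called, 0 with edgeR over all 9 libraries, was 2 with DESeq2 (3.36% of all genes called), 1 with the replicate block (1.44%) and 3 in replicates 2 and 3 alone (3.31%), and it was 0 to 0 when 1 library was left out. From 5.5DDC to 6.5DDC, likewise from 0, it was 1 with DESeq2 size factors (RLE; 0.251% of all genes), with library totals (0.373%), with no filter (0.337%), with limma voom (0.251%) and with the replicate block (1.32%), and 3 with DESeq2 (4.55%) and in replicates 2 and 3 alone (4.97%), and 0 to 2 when 1 library was left out. From 4.5DDC to 6.5DDC the count of 7, where 18.7% of all genes were called, became 11 with DESeq2 (25%), 4 with limma on log2(FPKM + 1) and 4 on log2(FPKM + 0.1) (16.7% in each; Mest, Nap1l5, Rian and Usp29 in both), 9 with no filter (11.2%), 8 with library totals (19%) and with limma voom (18%), 6 in the 6 libraries compared (13.4%), 12 with the replicate block (23.2%), 17 in replicates 2 and 3 alone (31.3%), and 5 to 12 when 1 library was left out (7.56% to 20.9%). For this span the block stands only as an alternative, since not every number paired between 4.5DDC and 6.5DDC. The libraries of replicate 1 deviated together (correlation 0.383), and those of replicates 2 and 3 did not (−0.0396 and −0.215). By replicate number the count of 2, where 5.41% of all genes were called, became 1 with library totals (4.54%), 5 with no filter (5.51%), 5 with DESeq2 (8.51%), 0 with limma on log2(FPKM + 1) (1.52%), 0 on log2(FPKM + 0.1) (1.87%), and 0 to 5 when 1 library was left out (1.38% to 8.41%). It was 0 in replicates 2 and 3 alone, which hold no library of replicate 1. Replicates 2 and 3 alone was chosen after seeing the data and leaves 2 libraries per time point. The share of all genes called changed with most of these settings as well, but not always in the same direction: from 4.5DDC to 6.5DDC it fell while the count rose with no filter, with limma voom and without 4.5DDC replicate 1 (14.8% of all genes, 10 imprinted genes). With no filter the share is taken over 23118 genes, of which 2596 were called, against 2763 of 14742 in the main fit. These 2 shares thus have unlike backgrounds. Why the counts of imprinted genes moved otherwise than the shares was not tested. Usp29, Nap1l5, Rian and Mest were called between 4.5DDC and 6.5DDC under all 19 alternatives. Depth limits the low values: 3 counts equal 0.118 to 0.271 CPM, and differences in Phlda2 and Slc22a18 near that level were not detectable at this depth.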
